A study of Mus musculus with 9 samples.

Results

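The GATA family of transcription factors and the cofactors that bind it were followed through Drosha knockdown in a mouse kidney cell line. The members were taken by gene symbol, not by any measured value: Gata1, Gata2, Gata3, Gata4, Gata5 and Gata6, the FOG genes Zfpm1 and Zfpm2, and Trps1. All 9 were found among the 55357 genes of the deposited table.

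GATA factors bind DNA through a pair of zinc fingers that recognise the bases GATA. By textbook convention the haematopoietic members GATA1, GATA2 and GATA3 are set apart from GATA4, GATA5 and GATA6, which are best known from heart, gut and gonad. FOG proteins (friend of GATA, encoded by Zfpm1 and Zfpm2) do not bind DNA on their own in the usual account. They hold on to the amino-terminal finger of a GATA factor and bring repressor complexes such as NuRD and CtBP to it. TRPS1 carries a single GATA-type finger and acts mainly as a repressor at GATA sites, with known roles in cartilage, hair follicle and kidney development. In the kidney GATA3 is known from the nephric duct and collecting system, and it is also a marker of mesangial cells in human tissue.

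Messenger RNA was measured in SV40-MES-13, a mouse kidney line transformed with SV40 and labelled by the submitters as renal mesangial. The sh7 group (n = 2) and the sh5 group (n = 1) carried a Drosha shRNA in the lentiviral vector pLL3.7, and the empty vector group (EV, n = 2) has the genotype label WT. Library titles and genotype labels call the shRNA groups Drosha KO, whereas the protocol describes a knockdown plasmid, so knockdown is used here. All 5 mRNA libraries come from the same line in the same culture medium, and the labels give no time after infection and no sorting of infected cells. Whether replicates were separate cultures is not stated, so every p-value here reflects no more than the variation among the libraries at hand, part or all of it possibly technical. The series title asks about an axis of Drosha, the ribosome and Gata3, and the 4 small RNA samples of the series were not analysed here.

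The sequences that define the perturbation are those of the shRNAs, printed from the labels 5′ to 3′ with no base singled out. The sh7 sequence has 19 bases and the sh5 sequence 21.
sh7: gtgtgcccattgaaataaa
sh5: cctggaatatgtccacacttt

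Promoter windows were available from RefSeq (GRCm38.p6) for 5 of the 9 members, in 6 windows that run from 250 bases before to 50 bases after a transcription start. They were searched on both strands for 4 forms of the GATA-binding word. These were AGATAA, the same word ending in G (AGATAG), and both words with T in place of the leading A (written TGATAA for the ending in A, and TGATAG for the ending in G). The Gata3 window was the only one of the 6 with a match, a TGATAG that begins 37 bases after the start. It is shown for that word (capitals) and because the series title names this gene, beside the window of Zfpm1, the most abundant member with a window, which held none. The Gata3 window is chr2:9878551-9878850 on the minus strand, and the Zfpm1 window is chr8:122281891-122282190 on the plus strand.
Gata3: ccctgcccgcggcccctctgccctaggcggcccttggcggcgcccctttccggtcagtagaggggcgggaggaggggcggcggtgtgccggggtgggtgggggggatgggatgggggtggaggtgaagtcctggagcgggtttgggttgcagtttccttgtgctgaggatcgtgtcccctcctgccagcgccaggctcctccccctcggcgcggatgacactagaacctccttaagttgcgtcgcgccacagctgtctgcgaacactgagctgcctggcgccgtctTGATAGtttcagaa
Zfpm1: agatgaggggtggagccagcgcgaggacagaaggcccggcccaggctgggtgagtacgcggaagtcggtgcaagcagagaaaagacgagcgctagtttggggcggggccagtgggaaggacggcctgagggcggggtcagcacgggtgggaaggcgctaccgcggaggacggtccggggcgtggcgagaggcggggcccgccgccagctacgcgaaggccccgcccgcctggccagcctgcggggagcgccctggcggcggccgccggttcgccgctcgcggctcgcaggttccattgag
At least 1 of the 4 words was present in 29.8% of the 32851 promoter windows of the reference table. Both printed windows are rich in G and C, with 67.3% for Gata3 and 73.7% for Zfpm1 against a median of 52.7% over all windows. A match describes these letters only, and no match says nothing about binding.

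Values are TPM, transcript abundances scaled to a common total and corrected for transcript length, so that levels of different genes can be set side by side. Sequencing depth is unknown from TPM. Each library had between 20280 and 22045 genes above 0 TPM. EV replicate 1 stood apart from the other libraries: across the 12728 tested genes it correlated with EV replicate 2 at r = 0.968 on the log2 scale, while EV replicate 2 reached r = 0.978 with either sh7 library and r = 0.982 with the sh5 library. For some results the value without it is also given, and other results may depend on it too. Between sh7 and EV the median tested gene differed by 0.09 on the log2 scale, and between sh7 and sh5 by 0.16. After median-of-ratios scaling the second of these medians was -0.01, so differences between the shRNAs are best read against that shift.

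The labelled cell type was checked with marker genes. Of 12 mesangial and pericyte markers, Mcam and Foxd1 passed the filter of 1 TPM on average, at 6.45 to 8.08 and 2.59 to 3.40 TPM over the 5 libraries. The other 10 did not pass, among them the mesangial integrin gene Itga8, listed at 0 in 4 libraries and at 0.0117 TPM in EV replicate 2. Pdgfrb, the receptor gene most used to mark mesangium, lay between 0.0899 and 0.251 TPM. The summed mesangial list was at 11.7 and 12.6 TPM in the sh7 libraries, 12.1 TPM with sh5 and 10.7 and 12.1 TPM in the EV libraries. Of its 12 genes 3 or 4 were listed at 0 in the sh7 libraries, 6 in the sh5 library and 3 in each EV library, and Ren1 and Rgs5 were at 0 in all 5. Some kidney epithelial genes were far more abundant: the tubule and duct list summed to 200.3 and 209 TPM in the sh7 libraries, 226 TPM with sh5 and 158 and 206 TPM in the EV libraries. The sum rested on Cdh16 and Epcam. Only 4 of its 10 genes passed the filter, and 4 were listed at 0 in the sh7 and sh5 libraries and 3 or 4 in the EV libraries, with Slc34a1, Umod and Aqp2, genes of specialised tubule segments, at 0 in all 5. Cdh16, a cadherin of tubular epithelium, was at 126 to 154 TPM, and Epcam ranged from 26.9 TPM in EV replicate 1 to 64.7 TPM in the sh5 library. Defining mesangial markers were thus near 0, and the cells are called here by the name of the line. Cdh16, Epcam and Cdh1 were lowest in EV replicate 1, whereas Lrp2 was highest there, at 2.68 TPM against 1.11 to 1.65 TPM in the others, and their part in the GATA values was not tested.

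Drosha, the nuclear RNase that starts microRNA processing and the target of both shRNAs, was at 8.39 and 14.9 TPM in the sh7 libraries, 36.0 TPM with sh5 and 60.0 and 56.4 TPM in the EV libraries. Both shRNA groups were below both EV libraries, and sh5 lay nearer to EV. The log2 difference was -2.27 for sh7 (SE 0.266, limma adjusted p = 0.109) and -0.68 for sh5 (SE 0.326, limma adjusted p = 0.572), so neither passed the threshold of 0.05. Dgcr8, whose protein partners Drosha, was at 171 and 161 TPM in sh7, 24.3 TPM in sh5 and 26.7 and 26.3 TPM in EV. Its difference in sh7 was 2.60 (SE 0.0887, limma adjusted p = 0.0153).

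The 9 members formed clear tiers of abundance. Zfpm2, encoding FOG2, was the most abundant of them in every library and lay near the middle of the tested range, above 41.4% to 50.7% of tested genes. Trps1 and Zfpm1 followed and overlapped: Trps1 ranged from 5.51 to 13.7 TPM and Zfpm1 from 6.55 to 10.1 TPM. Gata4 stood alone below them at 2.16 to 2.67 TPM and was the only GATA factor above the filter. Gata6, Gata2 and Gata3 had overlapping ranges that all ended at or below 1.01 TPM, and Gata1 and Gata5 stayed at or below 0.235 TPM. Trps1 and Zfpm1 changed places between libraries, since their ratio was 1.38 and 1.52 in the sh7 libraries, 0.711 in the sh5 library and 0.993 and 1.18 in the EV libraries.

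**Figure D1:**
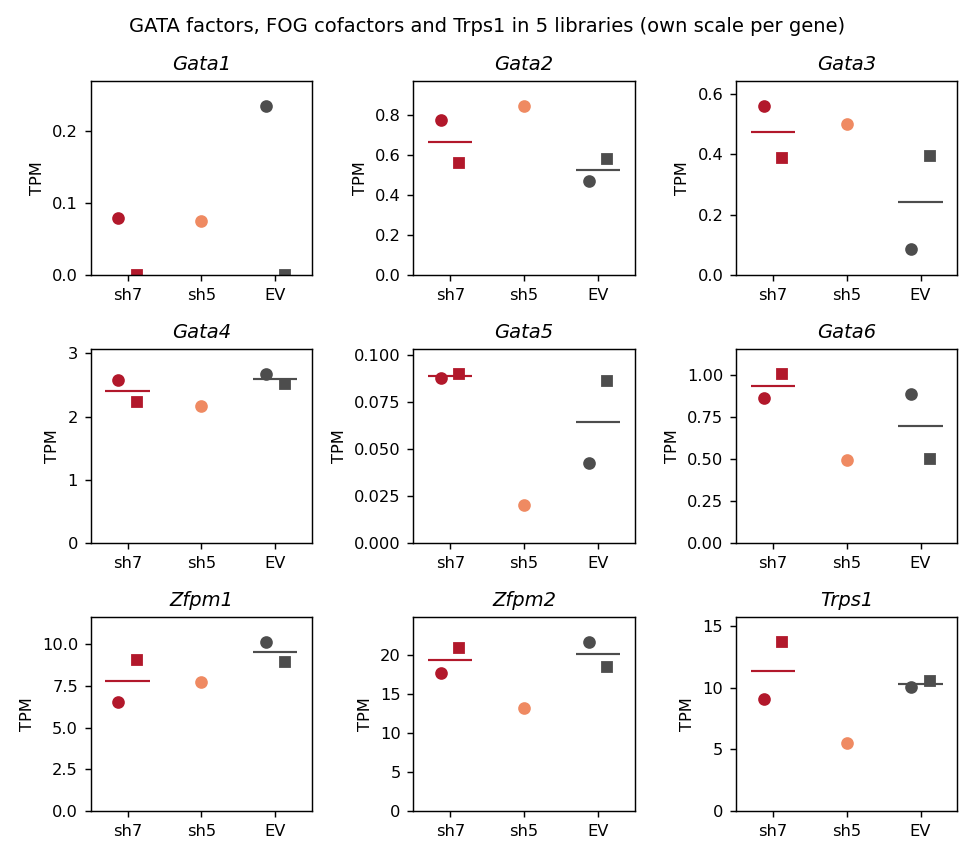
TPM of each of the 9 members in the sh7, sh5 and EV libraries, 1 panel per gene with its own axis from 0; circles are replicate 1, squares replicate 2, and lines the mean of groups of 2 (none is drawn for Gata1, which is listed at 0 in 2 libraries). Zfpm2, Trps1 and Zfpm1 reach 10.1 TPM or more in some library, and for Zfpm2 and Trps1 the sh5 library is the lowest of the 5.

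Of the 9 members, 4 passed the filter and were tested (Zfpm2, Trps1, Zfpm1 and Gata4), and 5 did not. In limma none of the 4 passed an adjusted p of 0.05 in sh7 against EV, where 0.0157% of tested genes did, in sh5 against EV (0% of tested genes), in sh7 against sh5 (0.0157%) or in all shRNA libraries against EV (0.0236%). At an unadjusted p under 0.05, 0 of 4 passed in sh7 against EV, 2 of 4 in sh5 against EV and 2 of 4 in sh7 against sh5, next to 14.5%, 9.55% and 20.7% of tested genes, and 0 of 4 in the pooled comparison, next to 3.76%. These counts were not steady: without EV replicate 1 that for sh5 against EV was 0 of 4, and for sh7 against sh5 it was 1 of 4 under median-of-ratios scaling and 0 of 4 without sh7 replicate 2. The comparisons of sh7 and of sh5 with EV share both EV libraries, and the spread of the other groups stands in for that of the lone sh5 library. In bulk RNA, fewer cells with a transcript and less of it per cell cannot be told apart.

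Gata3, the member named in the series title and known as a regulator of nephric duct and T helper fates, was at 0.559 and 0.390 TPM in the sh7 libraries, 0.50 TPM with sh5 and 0.0872 and 0.396 TPM in the EV libraries. EV replicate 1 was the lowest of the 5. EV replicate 2 lay just above the lower sh7 library, so sh7 and EV overlapped, while sh5 was above both EV libraries. The mean was 0.474 ± 0.120 TPM in sh7 and 0.242 ± 0.219 TPM in EV (SD, n = 2 each). At this level Gata3 exceeded at most 2.27% of the tested genes in any library, although it was above 68.1% or more of all genes in the table, most of which were at or near 0.

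Because Gata3 lay below the filter, it was tested only with the filter left out, over 27297 genes. The difference on the log2(TPM + 1) scale was 0.26 for sh7 against EV (SE 0.168, 95% interval -0.28 to 0.79, limma adjusted p = 0.665). For sh5 against EV it was 0.28 (SE 0.206, 95% interval -0.37 to 0.94, limma adjusted p = 0.824). These values rested on EV replicate 1, the library that stood apart: without it the differences were 0.076 for sh7 and 0.10 for sh5, and without EV replicate 2 they were 0.44 and 0.46. The pseudocount of 1 compresses differences at such low levels, and with 0.1 in its place the values were 0.90 and 0.98, also not past the threshold. The lowest adjusted p for Gata3 over these alternatives and the 3 comparisons with EV was 0.342. Gata3un, a neighbour of Gata3 in the reference annotation, and 4930412O13Rik, which overlaps it there, were listed at 0 in all 5 libraries.

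Gata4, a regulator of heart, gonad and endoderm, was at 2.58 and 2.24 TPM in the sh7 libraries, 2.16 TPM with sh5 and 2.67 and 2.51 TPM in the EV libraries. The sh5 library was the lowest, and 1 sh7 library fell between the EV libraries. The mean was 2.41 ± 0.245 TPM in sh7 and 2.59 ± 0.115 TPM in EV (SD, n = 2 each). The log2 difference was -0.08 for sh7 (SE 0.215, 95% interval -0.63 to 0.48, limma adjusted p = 0.888) and -0.18 for sh5 (SE 0.263, 95% interval -0.87 to 0.50, limma adjusted p = 0.819). The sh7 value lay between -0.149 and -0.0022 with each library left out and was -0.148 under median-of-ratios scaling.

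Gata6, the close relative of Gata4, was at 0.866 and 1.01 TPM in the sh7 libraries, 0.497 TPM with sh5 and 0.888 and 0.502 TPM in the EV libraries. EV replicate 1 and the sh7 libraries were high, whereas EV replicate 2 and the sh5 library were low and close together. The means were 0.936 ± 0.0994 TPM in sh7 and 0.695 ± 0.273 TPM in EV (SD, n = 2 each).

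Gata2, which maintains blood stem and endothelial programmes, was at 0.773 and 0.561 TPM in the sh7 libraries, 0.844 TPM with sh5 and 0.469 and 0.583 TPM in the EV libraries. The sh5 library was the highest of the 5, and the sh7 and EV ranges overlapped. The mean was 0.667 ± 0.150 TPM in sh7 and 0.526 ± 0.0807 TPM in EV (SD, n = 2 each).

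Gata5, a factor of heart valve and gut, was at 0.0876 and 0.0898 TPM in the sh7 libraries, 0.0204 TPM with sh5 and 0.0427 and 0.0863 TPM in the EV libraries. Both sh7 libraries were above both EV libraries, the nearest by a margin far smaller than the distance between the EV libraries. It was the only member whose sh7 libraries did not overlap EV, and 35.8% of tested genes had both sh7 libraries above both EV libraries (14.3% had both below). After median-of-ratios scaling these shares were 22.1% and 25.4%. That scaling divides EV replicate 2 by 0.973 and the sh7 libraries by 1.06 and 1.07. It puts Gata5 of EV replicate 2 above both sh7 libraries, so the separation of Gata5 is lost. Gata1, the erythroid factor, was listed at 0.0804 and 0 TPM in the sh7 libraries, 0.0749 TPM with sh5 and 0.235 and 0 TPM in the EV libraries. A zero in such a table can be a failed estimate, so no mean or fold is given for it.

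The sh5 library lay outside the EV range for 8 of the 9 members: below both EV libraries for Gata4, Gata5, Gata6, Zfpm1, Zfpm2 and Trps1, and above both for Gata2 and Gata3. Among tested genes 43.7% were below both EV libraries in sh5 and 26.9% above both, and after median-of-ratios scaling these shares were 33.8% and 38.1%. The members were counted before scaling. Gata6 was below EV by little, at 0.497 TPM in sh5 against 0.502 TPM in EV replicate 2. Scaling divides these by 0.933 and 0.973, which puts Gata6 of sh5 inside the EV range. With a lone library outside a pair being so common, the 6 and 2 members are a description.

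Summed over the 6 genes, GATA mRNA came to 4.95 and 4.28 TPM in the sh7 libraries, 4.10 TPM with sh5 and 4.39 and 4.08 TPM in the EV libraries. The groups overlapped in this sum. Its make-up shifted a little more: Gata4 provided 52.2% in each sh7 library and 52.8% in the sh5 library, against 60.8% and 61.5% in the EV libraries, so that the 3 shRNA libraries were below both EV libraries. The share is a ratio of levels with unknown counting error, most of whose parts are under 1 TPM, and it was chosen after its values were seen, so it was not tested. Gata3 provided 11.3% and 9.09% in the sh7 libraries, 12.2% in the sh5 library and 1.99% and 9.72% in the EV libraries, where EV replicate 1 again stood apart.

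**Figure D2:**
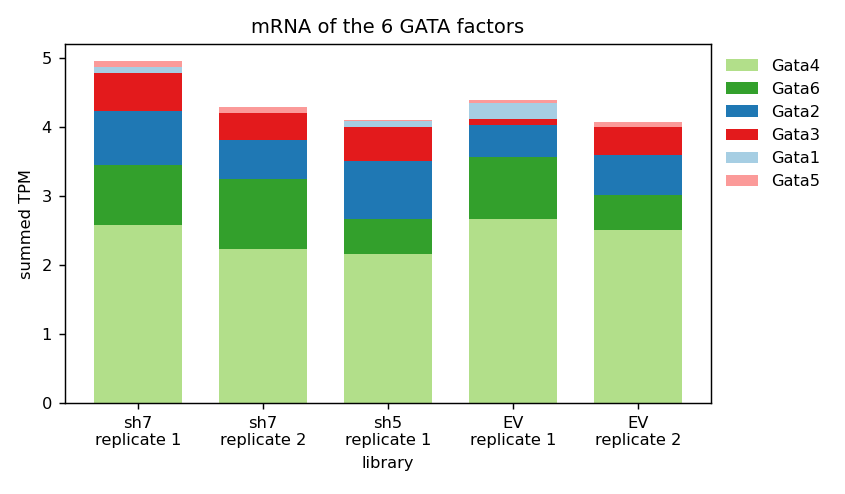
Summed TPM of the 6 GATA factors in each library, stacked by gene from Gata4 at the bottom to Gata5 at the top. Gata4 is the largest part of every bar, from 52.2% in the sh7 libraries to 61.5% in EV replicate 2, and the Gata3 segment is narrowest in EV replicate 1.

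Zfpm2, the cofactor FOG2 that partners GATA4 in heart and gonad, was at 17.7 and 20.9 TPM in the sh7 libraries, 13.2 TPM with sh5 and 21.7 and 18.4 TPM in the EV libraries. The sh5 library was the lowest, and the sh7 and EV libraries interleaved. In sh7 against EV the mean was 19.3 ± 2.30 TPM and 20.1 ± 2.27 TPM (SD, n = 2 each), with a log2 difference of -0.05 (SE 0.151, 95% interval -0.45 to 0.34, limma adjusted p = 0.890). The sign turned without EV replicate 1 (0.058) and without sh7 replicate 1 (0.063). In sh5 against EV the difference was -0.57 (SE 0.185, 95% interval -1.05 to -0.08). That interval leaves out 0, but without EV replicate 1 the difference was -0.46 with an interval that includes 0. The limma adjusted p over all tested genes was 0.501, so it is not a call, and over the alternatives it lay between 0.206 and 0.775.

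Zfpm1, the cofactor FOG1 that GATA1 needs in red cell and megakaryocyte development, was at 6.55 and 9.04 TPM in the sh7 libraries, 7.75 TPM with sh5 and 10.1 and 8.92 TPM in the EV libraries. Replicate 1 of sh7 was the lowest, and replicate 2 of sh7 lay between the EV libraries. The mean was 7.80 ± 1.76 TPM in sh7 and 9.52 ± 0.858 TPM in EV (SD, n = 2 each). The log2 differences were -0.27 for sh7 (SE 0.201, 95% interval -0.79 to 0.25, limma adjusted p = 0.545) and -0.26 for sh5 (SE 0.246, 95% interval -0.90 to 0.37, limma adjusted p = 0.728). Between the shRNAs Zfpm1 differed by -0.0072 (SE 0.246, 95% interval -0.65 to 0.63, limma adjusted p = 0.990), and without sh7 replicate 1 by 0.20. Leaving out each library in turn, the sh7 difference from EV lay between -0.48 and -0.065.

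FOG mRNA outweighed GATA mRNA throughout. Zfpm1 and Zfpm2 together came to 24.2 and 30.0 TPM in the sh7 libraries, 20.9 TPM with sh5 and 31.8 and 27.4 TPM in the EV libraries. The FOG sum was 4.90 and 7.0 times the GATA sum in the sh7 libraries, 5.11 times in the sh5 library and 7.24 and 6.71 times in the EV libraries. The ratio of Zfpm2 to Zfpm1 was 2.70 and 2.32 in the sh7 libraries, 1.70 in the sh5 library and 2.14 and 2.07 in the EV libraries, so it was higher than EV in sh7 and lower in sh5. These ratios were not tested, and with 1 sh5 library there is no replicate of the lower value.

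Trps1 had the widest spread relative to its level among the 4 tested members, with an SD of 2.95 TPM on a mean of 9.77 TPM over the 5 libraries, next to 3.35 TPM on 18.4 TPM for Zfpm2. It was at 9.05 and 13.7 TPM in the sh7 libraries, 5.51 TPM with sh5 and 10.1 and 10.5 TPM in the EV libraries. The sh7 replicates lay on either side of the EV pair, and the sh5 library was below all others. The mean was 11.4 ± 3.29 TPM in sh7 and 10.3 ± 0.317 TPM in EV (SD, n = 2 each). In sh7 against EV the log2 difference was 0.11 (SE 0.224, 95% interval -0.47 to 0.69, limma adjusted p = 0.842). Its sign depended on the replicate, since it was -0.17 without sh7 replicate 2 and 0.38 without sh7 replicate 1.

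In sh5 against EV the difference of Trps1 was -0.79 (SE 0.274, 95% interval -1.50 to -0.08, limma adjusted p = 0.513). With either EV library left out that interval included 0, with differences of -0.82 without replicate 1 and -0.76 without replicate 2. In sh7 against sh5 it was 0.90 (SE 0.274, 95% interval 0.19 to 1.61, limma adjusted p = 0.181), and for Zfpm2 the same comparison gave 0.51 (SE 0.185, 95% interval 0.03 to 0.99, limma adjusted p = 0.222). Under median-of-ratios scaling these differences were 0.73 for Trps1 and 0.33 for Zfpm2, the second with an interval that includes 0. Neither difference between the shRNAs passed the threshold, and 17.1% of tested genes were higher in sh7 than in sh5 at an unadjusted p under 0.05. For Gata4 the difference between the shRNAs was 0.11 (SE 0.263, 95% interval -0.58 to 0.79, limma adjusted p = 0.844), and -0.025 under median-of-ratios scaling. With all 3 shRNA libraries pooled against EV the differences were -0.22 for Zfpm2, -0.27 for Zfpm1, -0.19 for Trps1 and -0.11 for Gata4. Their limma adjusted p-values lay between 0.919 and 0.976. Without EV replicate 1 the pooled differences were -0.11, -0.19, -0.22 and -0.079 in the same order of genes.

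**Figure D3:**
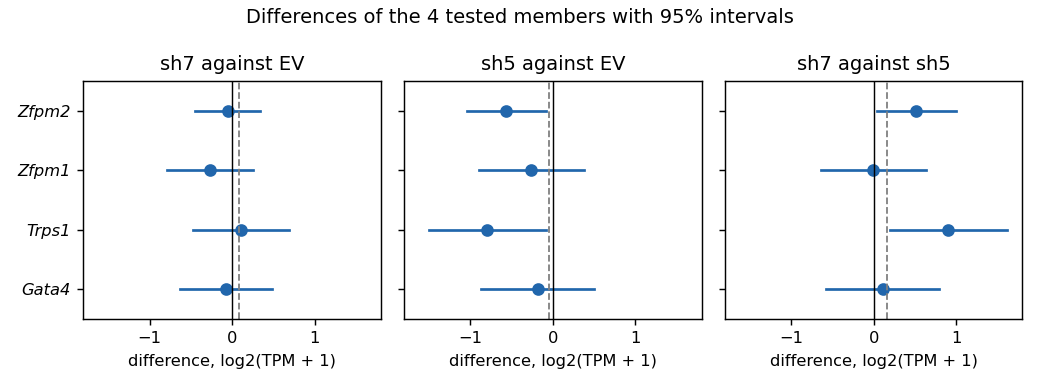
Differences on the log2(TPM + 1) scale of Zfpm2, Zfpm1, Trps1 and Gata4 for sh7 against EV, sh5 against EV and sh7 against sh5, as points with 95% intervals from limma; the dashed line is the median of all tested genes. In sh7 against EV all 4 intervals include 0, and in the other 2 comparisons those of Zfpm2 and Trps1 leave it out while their adjusted p-values stay between 0.181 and 0.513.

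The corepressors and coactivators that FOG and GATA proteins recruit were all expressed: 23 of 23 passed the filter, and their summed level was 2243 to 2402 TPM in sh7, 2119 TPM in sh5 and 2323 to 2442 TPM in EV. None passed the limma threshold in either comparison with EV. In sh7 9 were higher and 14 lower than EV, with a median log2 difference of -0.03 against 0.09 over all tested genes, of which 35.7% were lower, and under median-of-ratios scaling 5 were higher and 18 lower. In sh5 2 were higher and 21 lower, with a median of -0.17 against -0.05 over all tested genes, of which 58.2% were lower. Under that scaling the sh5 split was 8 higher and 15 lower, and without EV replicate 1 it was again 2 and 21. At an unadjusted p under 0.05, 4 of 23 members differed in sh7 (2 in each direction) and 6 of 23 in sh5 (all lower), next to 14.5% and 9.55% of all tested genes.

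The 3 coregulators with the smallest p in sh7 are given as not past the threshold. Ctbp1, a corepressor that FOG binds through a short peptide motif, was at 178 and 183 TPM in the sh7 libraries, 252 TPM with sh5 and 285 and 258 TPM in the EV libraries. Both sh7 libraries were below the other 3, and the log2 difference in sh7 was -0.59 (SE 0.0847, limma adjusted p = 0.159). Kat2b, an acetyltransferase known as PCAF, was at 26.1 and 30.3 TPM in the sh7 libraries, 11.5 TPM with sh5 and 12.3 and 15.8 TPM in the EV libraries. Both sh7 libraries were above all others, with a difference of 0.96 (SE 0.171, limma adjusted p = 0.208). Hdac1, a catalytic subunit of NuRD, was at 213 and 233 TPM in the sh7 libraries, 169 TPM with sh5 and 165 and 176 TPM in the EV libraries, a difference of 0.38 in sh7 (SE 0.0868, limma adjusted p = 0.257).

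GATA-type fingers also occur in proteins outside the family, several of them NuRD subunits, and 5 of the 8 genes on that list are among the coregulators too. Of the 8, 7 were tested and none was called. In sh7 3 were higher and 4 lower than EV, and in sh5 1 was higher and 6 lower. The sh5 split turned round under median-of-ratios scaling, to 6 higher and 1 lower, so it carries no direction, and the sh7 split became 1 higher and 6 lower. Mta2, a NuRD subunit, was at 90.3 and 83.4 TPM in the sh7 libraries, 106 TPM with sh5 and 116 and 108 TPM in the EV libraries, a log2 difference of -0.37 in sh7 (SE 0.0904, limma adjusted p = 0.267). Rere, a corepressor of the atrophin family, was at 46.9 and 41.9 TPM in the sh7 libraries, 27.9 TPM with sh5 and 31.5 and 36.8 TPM in the EV libraries, a difference of 0.37 in sh7 (SE 0.127, limma adjusted p = 0.326). The third gene the rule named, Gatad1, differed by -0.08 in sh7 (SE 0.0979, limma adjusted p = 0.706).

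Transcription factors and adaptors that form complexes with GATA proteins were measured less often, with 13 of 29 past the filter. The scaffold genes Ldb1 and Lmo4 were among them, at 69.5 to 87.8 TPM and 28.2 to 30.6 TPM over the 5 libraries, and were chosen after their values were seen. Their relatives on the list did not pass, among them Lmo2 at 0.325 to 1.26 TPM and Ldb2, listed at 0 in all 5 libraries. Tal1, the partner of GATA1 in blood, was near the filter at 1.05 to 1.74 TPM. No partner was called and none differed at an unadjusted p under 0.05 in either comparison with EV. Of all tested genes 14.5% in sh7 and 9.55% in sh5 had such a p. In sh7 4 were higher and 9 lower (2 and 11 under median-of-ratios scaling, 7 and 6 without EV replicate 1). In sh5 2 were higher and 11 lower (3 and 10 under that scaling, 1 and 12 without EV replicate 1). Among all tested genes 35.7% were lower in sh7 and 58.2% in sh5. Spi1, which antagonises GATA1 in blood, was at 9.37 and 8.08 TPM in the sh7 libraries, 10.0 TPM with sh5 and 11.2 and 11.3 TPM in the EV libraries, a difference of -0.34 in sh7 (SE 0.148, limma adjusted p = 0.378). Nfatc4 and Runx1 followed in the order of p, with differences of -0.52 (SE 0.301, limma adjusted p = 0.462) and -0.36 (SE 0.225, limma adjusted p = 0.486) in sh7.

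Enzymes and chaperones that modify GATA proteins or control their turnover were the list with the most members above EV in sh7. Of 16, 15 were tested, and 12 were higher and 3 lower in sh7, with a median log2 difference of 0.18 against 0.09 over all tested genes. Of all tested genes 35.7% were lower in sh7. The split of the list was 9 and 6 without EV replicate 1, where 32.3% of tested genes were lower. It was likewise 9 and 6 under median-of-ratios scaling, where 51.0% of tested genes were lower. In sh5 10 were higher and 5 lower, and 12 and 3 after that scaling, next to 58.2% and 46.4% of tested genes lower. None was called, and 6 of 15 in sh7 (5 higher, 1 lower) and 2 of 15 in sh5 (1 each way) had an unadjusted p under 0.05, next to 14.5% and 9.55% of all tested genes. Pias4, a SUMO ligase, was at 27.9 and 27.4 TPM in the sh7 libraries, 18.5 TPM with sh5 and 18.7 and 19.8 TPM in the EV libraries. Both sh7 libraries were above the other 3, a difference of 0.50 (SE 0.108, limma adjusted p = 0.246). Mapk3, which encodes a MAP kinase, differed by 0.40 in sh7 (SE 0.103, limma adjusted p = 0.271).

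Genes tied to GATA3 in the nephric duct and in T helper cells were tested for 7 of 15 members. Of the duct transcription factors, Lhx1 was at 0.0184 to 0.476 TPM and below the filter. Pax8 was at 72.3 and 89.0 TPM in the sh7 libraries, 51.7 TPM with sh5 and 75.5 and 68.3 TPM in the EV libraries. Pax2 ranged over the 5 libraries from 8.02 to 18.7 TPM. Ret, the receptor gene of the duct that GATA3 is known to act on, did not exceed 0.0307 TPM in any library. In sh7 3 members were higher and 4 lower than EV (5 and 2 without EV replicate 1), none with an unadjusted p under 0.05. In sh5 1 was higher and 6 lower, and the 3 with an unadjusted p under 0.05 were all lower. Among all tested genes 58.2% were lower in sh5 and 9.55% had such a p. None was called in limma. Emx2 and Pax8 differed from EV in sh7 by 0.17 (SE 0.138, limma adjusted p = 0.574) and 0.16 (SE 0.133, limma adjusted p = 0.599). In sh5 the difference of Pax8 was -0.47 (SE 0.163, limma adjusted p = 0.514).

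The list of GATA4 and GATA6 targets in heart, endoderm and gonad was mostly silent, with 7 of 23 members past the filter. The cardiac genes Nppa and Myh6 did not pass, and Myh6 was listed at 0 in all 5 libraries. In sh7 5 were higher and 2 lower (3 and 4 without EV replicate 1, 2 and 5 under median-of-ratios scaling). The direction in sh7 thus depended on the processing. In sh5 5 were higher and 2 lower (4 and 3 without EV replicate 1). The share of all tested genes that were lower was 35.7% in sh7 and 58.2% in sh5. Bmp4, a growth factor gene, was at 10.1 and 7.99 TPM in the sh7 libraries, 11.9 TPM with sh5 and 6.68 and 2.80 TPM in the EV libraries. All 3 shRNA libraries were above both EV libraries, with differences of 0.89 in sh7 (SE 0.371, limma adjusted p = 0.364) and 1.25 in sh5 (SE 0.455, limma adjusted p = 0.520). Star, of steroid synthesis, and Inhba, an activin subunit, differed in sh7 by 0.35 (SE 0.243, limma adjusted p = 0.525) and -0.25 (SE 0.279, limma adjusted p = 0.699).

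Partners and targets of TRPS1 passed the filter in 10 of 15 cases, and none was called. In sh7 6 were higher and 4 lower than EV (4 and 6 under median-of-ratios scaling, 7 and 3 without EV replicate 1). In sh5 2 were higher and 8 lower (3 and 7 under that scaling), with a median of -0.23 against -0.05 over all tested genes. Among all tested genes 35.7% were lower in sh7 and 58.2% in sh5. At an unadjusted p under 0.05, 1 of 10 members differed in sh7 and 3 of 10 in sh5, all 3 lower, next to 14.5% and 9.55% of all tested genes. Kpna2, an importin alpha gene, was at 27.4 and 32.1 TPM in the sh7 libraries, 2.01 TPM with sh5 and 45.9 and 31.1 TPM in the EV libraries. The sh5 library was far below the other 4, a log2 difference of -3.69 in sh5 (SE 0.266, limma adjusted p = 0.280) and -0.34 in sh7 (SE 0.217, limma adjusted p = 0.496). Its retrotransposed copy Kpna2rt was at 278 and 300 TPM in the sh7 libraries, 286 TPM with sh5 and 305 and 295 TPM in the EV libraries, and since the division of shared reads between such copies is not given, the Kpna2 value is uncertain. Kpna6 and Rnf4 differed by 0.34 (SE 0.106, limma adjusted p = 0.297) and 0.21 (SE 0.103, limma adjusted p = 0.407) in sh7.

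**Figure D4:**
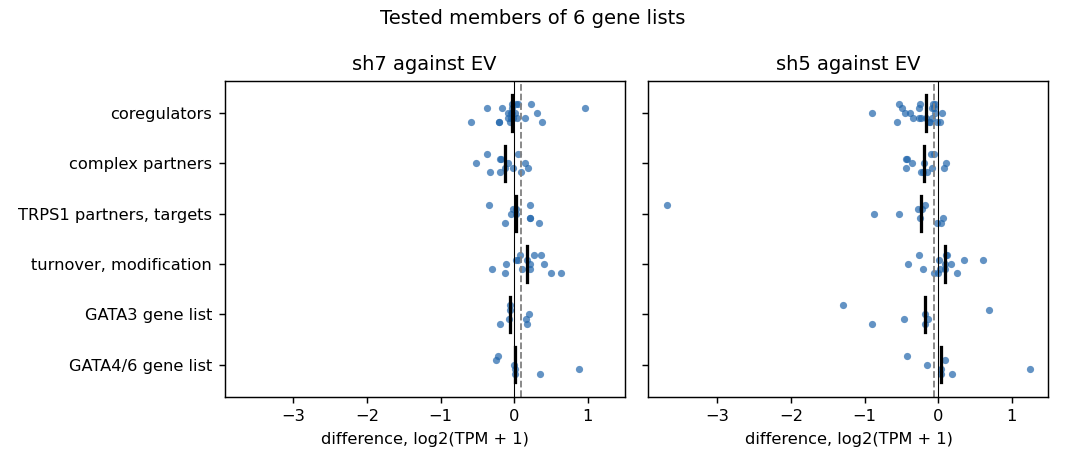
Differences on the log2(TPM + 1) scale of the tested members of 6 gene lists, for sh7 against EV on the left and sh5 against EV on the right; each point is a gene, the black bar the list's median and the dashed line the median of all tested genes. No point passed the limma threshold; the point near -3.69 in the sh5 panel is Kpna2, and the coregulator median is -0.03 in sh7 and -0.17 in sh5.

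The genes whose pattern over the 5 libraries was most like each tested member were taken from 9478 named genes averaging 5 TPM or more, by Pearson r of log2(TPM + 1). For Zfpm2 they were Smarcc1, Smchd1 and Zfp106, the nearest at r = 0.999, and 345 genes exceeded r = 0.95. For Trps1 they were Sav1, Bltp2 and Tead1, the nearest at r = 0.999, with 244 genes above 0.95. For Zfpm1 they were Tmed7, Tgm2 and Kpna2rt, the nearest at r = 0.997, with 41 genes above 0.95. For Gata4 they were Alkbh8, Lztfl1 and Ipo4, the nearest at r = 0.995, with 21 genes above 0.95. Zfpm2 and Trps1 thus had more close neighbours, 345 and 244 of the 9478 candidates, than Zfpm1 and Gata4 with 41 and 21. The sh5 library was the lowest for Gata4 as well as for Zfpm2 and Trps1. Gata4 was also near the filter, at 2.16 to 2.67 TPM. With 5 libraries that include a lone sh5 sample and an EV replicate that stands apart, these values only describe this set of libraries.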

How the data were processed

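Messenger RNA of SV40-MES-13 cells was analysed in 5 libraries (sh7, n = 2; sh5, n = 1; EV, n = 2). The authors deposited TPM values per gene; the submitters' processing notes name kallisto 0.48.0. Not given in the sources used here: genome build, annotation and how transcripts were summed. Each library sums to 1000000 TPM, so read depth is unknown and no counting error could be given. Library preparation gives no strand information in the labels, so reads of a gene and its antisense partner cannot be told apart.

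From these values limma 3.58.1 (R 4.3.3, lmFit and eBayes with trend) was run on log2(TPM + 1), a scale that understates changes of low genes. Testing took in the 12728 genes that averaged 1 TPM or more, two-sided, with Benjamini-Hochberg adjustment over all of them and a threshold of 0.05. The pooled comparison used a model of 2 arms, and the others a model of 3 groups with 2 residual degrees of freedom. The procedure was tested on simulated data in which 200 genes averaging 5 TPM or more were raised in sh7 only. No change was simulated for sh5 or for genes as low as Gata4, so it cannot tell how well those would be found. Sequence search and descriptions used Python 3.11.15 with pandas 2.3.3 and numpy 2.4.6. Promoter sequences came from RefSeq (GRCm38.p6).

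The members and gene lists were chosen with earlier results of these data known, so no list is independent support. From each list the 3 genes with the smallest p in sh7 against EV were named where none passed; some genes that meet this rule are not reported here. For likeness of pattern, predicted models, clones, pseudogenes, mitochondrial and small RNA genes and repeated symbols were left out, a wider exclusion than the rule as first written. Alternatives were a pseudocount of 0.1, no filter or a filter at 5 TPM, median-of-ratios scaling, a replicate block and leaving out each library. The tests of Gata3 without the filter and the list counts without EV replicate 1 or with scaling were chosen after seeing the data.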

Additional observations from a re-analysis of the deposited data

Results flagged for a closer look

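For 2 members the sh7 and sh5 libraries lay on opposite sides of the EV mean, and neither difference was tested, since both genes fell below the filter. Gata6 was at 0.866 and 1.01 TPM in the sh7 libraries, against 0.497 TPM in the sh5 library, with an EV mean of 0.695 TPM, and the sh7 mean was 1.88 times the sh5 value. The EV libraries themselves were at 0.888 and 0.502 TPM, so the sh7 and EV ranges overlapped. Gata5 was at 0.0876 and 0.0898 TPM in the sh7 libraries, against 0.0204 TPM in the sh5 library, with an EV mean of 0.0645 TPM, and the sh7 mean was 4.35 times the sh5 value. With 1 sh5 library neither has a replicate check, and the cause was not tested.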

How the results depend on the processing

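The results of the 4 tested members were stable in call, since none of them passed the limma threshold under any alternative run. Gata3, tested without the filter, did not pass in any comparison with EV. Gata1, Gata2, Gata5 and Gata6 were not followed through the alternatives. Signs turned in these member values: for sh7 against EV, leaving out each library in turn gave -0.17 to 0.063 for Zfpm2 and -0.17 to 0.38 for Trps1; for sh7 against sh5, -0.21 to 0.20 for Zfpm1 (and 0.0083 as a log2 ratio of group mean TPM); for all shRNA libraries against EV, -0.48 to 0.11 for Trps1. Gata4 in sh7 against sh5 turned to -0.025 under median-of-ratios scaling. The count of genes called over the whole table was unsteady. For sh7 against EV it was 2, and 1 with a pseudocount of 0.1 or median-of-ratios scaling, 0 without a filter (3059 at an unadjusted p under 0.05), 4 with a filter at 5 TPM, and 0 to 281 with each library left out. The 281 arose without EV replicate 2, which leaves EV replicate 1 as the only control. For sh5 against EV it was 0, and 180 without a filter and 0 to 59 with each library left out. For sh7 against sh5 it was 2, and 251 without a filter and 0 to 4 with each library left out. For all shRNA libraries against EV it was 3, and 0 without a filter (1007 at an unadjusted p under 0.05), 1 with a filter at 5 TPM and 0 to 3 with each library left out. The causes were not tested. A replicate block gave 0 calls in sh7 against EV, in sh7 against sh5 and in the pooled comparison. There 1594, 1859 and 583 genes had an unadjusted p under 0.05. With this block Zfpm2 and Trps1 in sh5 against EV no longer had an unadjusted p under 0.05. The labels only number the replicates. Deviations of the replicates numbered 1 of EV and sh7 correlated across genes at r = -0.0158. That value shows no shared shift, but it rests on EV replicate 1, which stood apart. It cannot tell whether libraries were prepared as pairs. A filter at 5 TPM leaves Gata4 untested, and sh5 comparisons could not be fitted without the sh5 library. Precision is limited by 2, 1 and 2 libraries a group and by unknown depth.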

Other observations

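Genes of the programmes that GATA1 and GATA2 run elsewhere were mostly below the filter, as were all but 23.0% of the genes in the table. Of 23 erythroid and megakaryocyte genes, 22 were found in the table and 2 passed the filter, Epor and Itga2b. Epor, the erythropoietin receptor gene, was at 4.41 and 5.38 TPM in the sh7 libraries, 3.21 TPM with sh5 and 6.99 and 4.37 TPM in the EV libraries, so the groups of sh7 and EV overlapped. The log2 difference was -0.16 in sh7 (SE 0.262, limma adjusted p = 0.804) and -0.64 in sh5 (SE 0.321, limma adjusted p = 0.585). Itga2b, the platelet integrin gene, differed by -0.0039 in sh7 on the log2 scale (SE 0.347, limma adjusted p = 0.996). Without EV replicate 1 both genes were higher in sh7 than EV, with a median difference of 0.27 against -0.08 with all libraries. Hbb-bt was listed at 0 in all 5 libraries. Of 10 endothelial genes known as GATA2 targets, 2 passed, Edn1 and Vcam1. Their sh7 differences were -0.19 (SE 0.410, limma adjusted p = 0.845) and 0.09 (SE 0.473, limma adjusted p = 0.942). Without EV replicate 1 their median difference was 0.33, against -0.05 with all libraries. Cdh5 stayed at or below 0.0708 TPM.

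Antisense genes beside the members gave little signal. Gata6os was listed at 0.111 and 0.326 TPM in the sh7 libraries, 0 TPM with sh5 and 0.107 and 0 TPM in the EV libraries. Its 2 highest values were in the sh7 libraries, and it was at 0 in the libraries where Gata6 was lowest. Gata5os and Mir1907, which lies within the span of Trps1, were listed at 0 throughout.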
